A study of Mus musculus with 4 samples.

Results

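The 49 genes described here carry cells through DNA replication and division. They were chosen as a list of gene symbols, 25 whose transcripts peak at the start of or during S phase and 24 whose transcripts peak in G2 and mitosis (G2/M). Each was matched to the array through the RefSeq accession of its probes and given the value of its brightest probe. Of the 49, 46 entered the test, 24 S-phase and 22 G2/M genes, among 17974 genes tested in all. Of those, 12756 had a gene symbol. The rest entered under the systematic name of their probe, so a gene can be present more than once. The cyclin Ccne2 and the kinetochore gene Cenpf were well above background on 0 of the 4 arrays, and the mitotic kinase Aurkb on 1, so these genes were not tested.

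RNA came from bone marrow-derived dendritic cells (BMDC), antigen-presenting cells obtained by culturing marrow for 6 days with 20 ng/mL GM-CSF, after which CD11c+ cells were isolated. RFF11 cells carried loxP-flanked Rbpj alleles (Rbpj fl/fl) together with CD11c-cre, a recombinase driven by the promoter of Itgax, the gene of the CD11c protein. RFF cells carried Rbpj fl/fl without the cre. All donors were female C57BL/6 mice of 8 weeks, RNA was pooled from 4 mice per genotype, and each genotype had 2 one-colour arrays. Deletion can begin only once a precursor switches on CD11c, and the loss of Rbpj cannot be told apart from the presence of the cre, because no group carried the cre with an intact Rbpj. The labels leave unsaid whether a genotype's arrays had separate pools or cultures behind them, so p-values measure only the spread between arrays, and that spread may be technical.

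A dividing cell first licenses its origins of replication in G1 by loading the MCM helicase, then fires them in S phase, and the genes for this machinery are switched on by E2F transcription factors once cyclin-dependent kinases inactivate the Rb proteins. A later wave of genes for mitotic cyclins, kinases and spindle proteins is held back by the DREAM complex and activated by B-MYB and FOXM1 through promoter elements known as CHR, for cell cycle genes homology region. In GM-CSF cultures of marrow, dendritic cell precursors proliferate while differentiated dendritic cells have largely left the cycle. In bulk RNA, a larger share of cycling cells and more transcript per cycling cell cannot be told apart.

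Levels are log2 signal after subtraction of each array's own 75th percentile, and a log2 change is RFF11 minus RFF. Of 43020 gene spots, 58.4% and 57.7% were well above background on the RFF11 arrays and 55.2% and 58.1% on the RFF arrays. All 4 arrays lay on 1 slide and shared 1 scan, with each genotype on adjoining positions, so slide position and genotype cannot be told apart. Rbpj, the DNA-binding protein of the Notch pathway, read 1.37 and 1.44 on the RFF11 arrays, against 2.69 and 2.61 on the RFF arrays. It fell by 1.25 on the log2 scale in RFF11 cells (limma SE 0.06, adjusted p = 0.0278), a call that needed all 4 arrays. Itgax read 6.65 and 6.45 in RFF11 cells and 6.69 and 6.63 in RFF cells.

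One array stood apart in these genes. RFF11 replicate 2 was above RFF11 replicate 1 for 44 of the 46 genes, by a median of 0.36 on the log2 scale, whereas the median over all genes tested was -0.002. The difference exceeded 0.25 for 36 of the 46, against 8.47% of all genes tested. The RFF arrays differed by a median of 0.02 for the same genes, and 2 of 46, Tyms and Bub1b, exceeded 0.25 there, against 6.77% of all genes. The SD between the RFF11 arrays was larger than that between the RFF arrays for 45 of 46 members, with medians of 0.26 in RFF11 and 0.04 in RFF, while over all genes it was larger in RFF11 for 8996 of 17974. For most of these genes, the comparisons of genotypes below therefore rest on a pair of RFF11 arrays that disagreed.

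None of the 46 genes passed the test between genotypes, in either direction, at a limma adjusted p under 0.05, a threshold that 1.88% of all genes tested passed. The smallest adjusted p among them was 0.162, for Mcm4. At an unadjusted p under 0.05, 3 members passed, Mcm4, Mcm2 and Kif23, all higher in RFF11, where 24.1% of all genes did. Although 40 of 46 log2 changes lay above 0, with a median of 0.11, the count was 44 for RFF11 replicate 2 alone against the RFF mean and 11 for RFF11 replicate 1 alone. Over all genes tested, 47.3% lay above 0 and the median was -0.01. Both RFF11 arrays were above both RFF arrays for 8 members, where 26.8% of all genes were, and below them for 2, where 32.3% of all genes were. For the other 36 the genotypes overlapped.

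**Figure D1:**
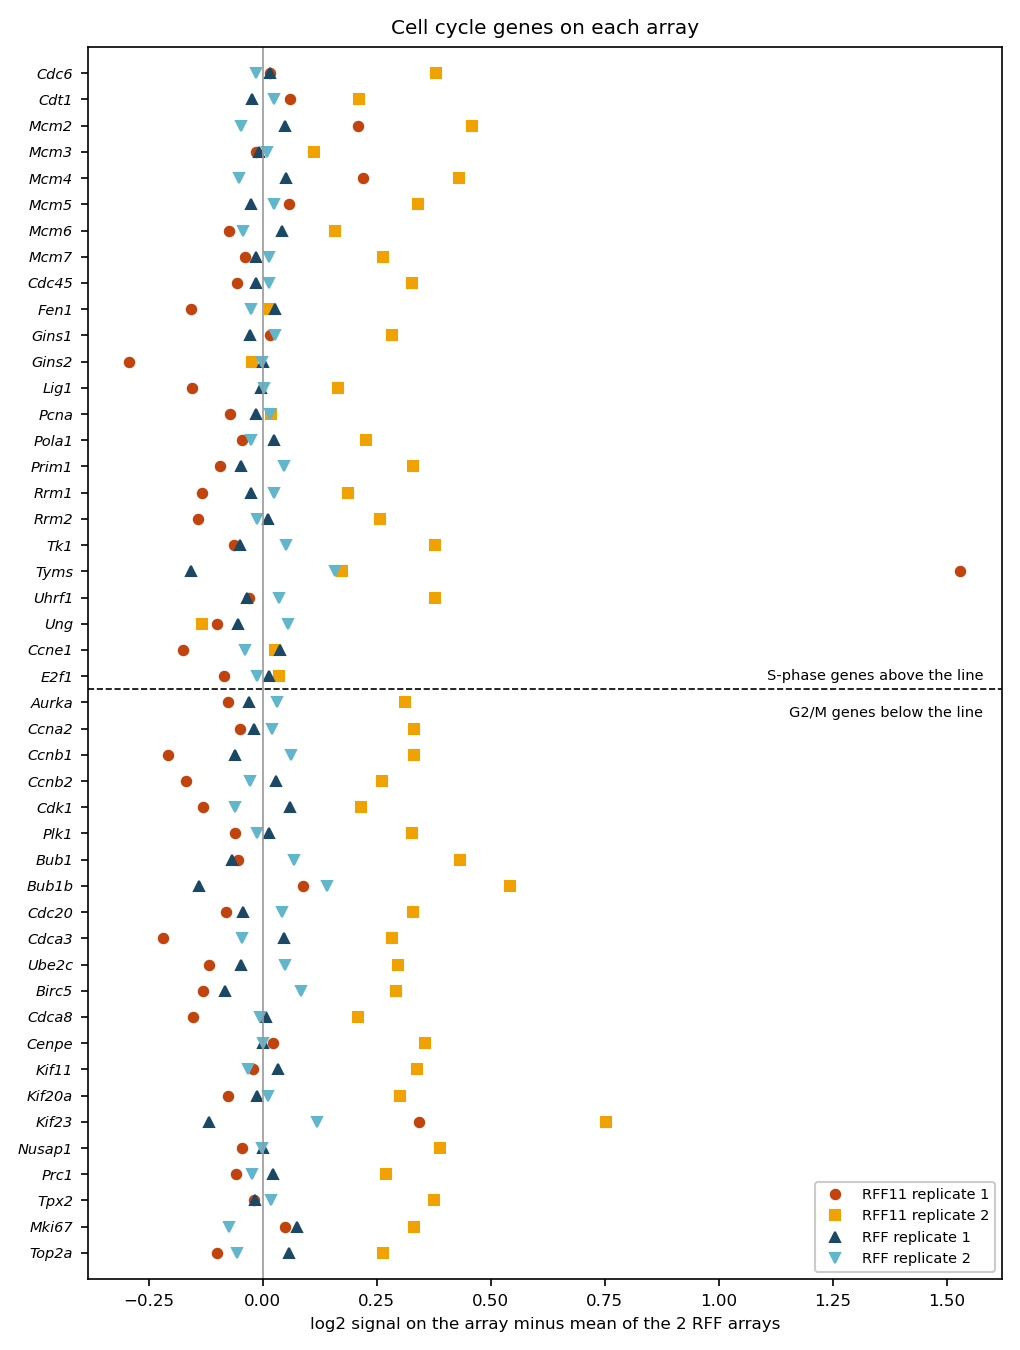
Difference of each array from the mean of the RFF arrays (log2, horizontal axis) for the 46 tested genes (vertical axis), with circles and squares for RFF11 replicates 1 and 2, triangles for the RFF arrays and a dashed line between S-phase and G2/M genes. RFF11 replicate 2 lies to the right of 0 for 44 of 46 genes, while RFF11 replicate 1 lies there for 11.

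Among the licensing genes, the 6 helicase subunits Mcm2 to Mcm7 and the loaders Cdc6 and Cdt1, all 8 log2 changes lay above 0 and none passed. Mcm2 read 0.05 and 0.30 on the RFF11 arrays, against -0.11 and -0.20 on the RFF arrays. Its log2 change was 0.33 (limma SE 0.11, 95% interval 0.04 to 0.63, adjusted p = 0.179), and both RFF11 arrays stood above both RFF arrays. Mcm6, with the smallest change of the group, read 3.81 and 4.04 in RFF11 cells and 3.92 and 3.84 in RFF cells. Its RFF11 arrays lay on either side of the RFF arrays, and its log2 change was 0.04 (limma SE 0.10, adjusted p = 0.825).

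Mcm4, named here after its values were seen, read 2.57 and 2.78 in RFF11 cells and 2.40 and 2.30 in RFF cells, with no overlap and a log2 change of 0.33 (SE 0.10, 95% interval 0.06 to 0.60). Both RFF11 arrays were above both RFF arrays for 5 of the 8 licensing genes, where 26.8% of all genes tested were. Besides Mcm2 and Mcm4, these were Mcm5 (0.20), Cdc6 (0.20, with RFF11 replicate 1 almost level with RFF replicate 1) and Cdt1 (0.13). Like Mcm6, Mcm7 (0.11) and Mcm3 (0.05) overlapped. Subunits of the same hexamer thus ran from 0.04 to 0.33. Against the RFF mean, RFF11 replicate 1 alone put Mcm2 at 0.21 and Mcm6 at -0.07, and RFF11 replicate 2 alone put them at 0.46 and 0.16.

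Genes of the replication fork lay around 0. The tested members were Pcna, the sliding clamp, the GINS subunits Gins1 and Gins2 and their helicase partner Cdc45, the primase and polymerase genes Prim1 and Pola1, and Fen1 and Lig1, which finish Okazaki fragments. Gins1 read -0.59 and -0.33 on the RFF11 arrays and -0.64 and -0.58 on the RFF arrays, a log2 change of 0.15 (limma SE 0.11, adjusted p = 0.461). Gins2, of the same complex, read -0.43 and -0.16 in RFF11 cells and -0.13 and -0.13 in RFF cells, a log2 change of -0.16 (limma SE 0.11, adjusted p = 0.428). Both RFF11 arrays were below both RFF arrays for Gins2, but RFF11 replicate 2 lay within 0.03 of them. Between these extremes, Cdc45 stood at 0.14, Prim1 at 0.12, Pola1 at 0.09, Lig1 at 0.005, Pcna at -0.03 and Fen1 at -0.07.

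Of the genes that supply nucleotides, Tyms, the thymidylate synthase, departed from the common pattern. It read -2.24 and -3.59 on the RFF11 arrays, against -3.92 and -3.61 on the RFF arrays. RFF11 replicate 1 alone was high, replicate 2 lay just above the nearer RFF array, and the log2 change of 0.85 had an SE of 0.49 (95% interval -0.51 to 2.21, limma adjusted p = 0.360). Without RFF11 replicate 1 it was 0.17, and with normexp background correction, which compresses dim signals, 0.45. Ribonucleotide reductase is made of a large subunit, Rrm1, and a small one, Rrm2. Rrm1 read 1.72 and 2.04 in RFF11 cells and 1.83 and 1.88 in RFF cells, the RFF11 arrays lying on either side of the RFF arrays, with a log2 change of 0.03 (limma SE 0.13, adjusted p = 0.915). Rrm2 stood at 0.06 and the thymidine kinase Tk1 at 0.16.

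Ung, which removes uracil from DNA, read 5.27 and 5.24 on the RFF11 arrays and 5.32 and 5.43 on the RFF arrays. It was the other member with both RFF11 arrays below both RFF arrays, with a log2 change of -0.12 (limma SE 0.07, adjusted p = 0.353), and with Tyms it was 1 of the 2 members not higher on RFF11 replicate 2 than on replicate 1. Uhrf1, which brings the maintenance DNA methyltransferase to newly made DNA, read 1.06 and 1.47 in RFF11 cells and 1.06 and 1.13 in RFF cells, a log2 change of 0.17 (limma SE 0.15, adjusted p = 0.535). Only its RFF11 replicate 2 left the range of the other arrays.

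The tested regulators of S-phase entry lay just below 0, with RFF11 replicate 2 above replicate 1 by 0.20 for Ccne1 and 0.12 for E2f1. Cyclin E1, Ccne1, read 2.43 and 2.63 in RFF11 cells and 2.64 and 2.56 in RFF cells, a log2 change of -0.07 (limma SE 0.09, adjusted p = 0.664). The transcription factor E2f1 read 1.21 and 1.33 in RFF11 cells and 1.31 and 1.29 in RFF cells, a log2 change of -0.02 (limma SE 0.07, adjusted p = 0.848) whose sign turned under quantile normalization. Against the RFF mean, RFF11 replicate 2 alone put Ccne1 at 0.03 and E2f1 at 0.04.

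All 22 tested G2/M genes had a log2 change above 0, from 0.03 for Cdca8 to 0.55 for Kif23, and none passed. Mki67, the gene of the Ki-67 proliferation antigen that coats mitotic chromosomes, read 2.82 and 3.10 on the RFF11 arrays and 2.84 and 2.69 on the RFF arrays. Its log2 change was 0.19 (limma SE 0.12, adjusted p = 0.408), and RFF11 replicate 1 lay between the RFF arrays. Top2a, the topoisomerase that untangles sister chromosomes, read 0.10 and 0.46 in RFF11 cells and 0.25 and 0.14 in RFF cells, a log2 change of 0.08 (limma SE 0.14, adjusted p = 0.759). The RFF11 arrays enclosed the RFF arrays.

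The mitotic cyclins and kinases overlapped between genotypes as well. Cyclin A2, Ccna2, read 1.54 and 1.92 in RFF11 cells and 1.57 and 1.61 in RFF cells, a log2 change of 0.14 (limma SE 0.15, adjusted p = 0.594). Cdk1, the kinase that cyclins A and B activate at mitosis, read -0.64 and -0.29 in RFF11 cells and -0.45 and -0.57 in RFF cells, a log2 change of 0.04 (limma SE 0.14, adjusted p = 0.876). By the brightest probe of both genes, RFF11 replicate 1 was the lowest of the 4 arrays and replicate 2 the highest. The B cyclins Ccnb1 (0.06) and Ccnb2 (0.05) and the kinases Plk1 (0.13) and Aurka (0.12) lay between them. A dimmer Cdk1 probe, also well above background on all 4 arrays, went otherwise. It read -4.53 and -4.64 in RFF11 cells and -4.74 and -4.69 in RFF cells, with RFF11 replicate 1 the highest.

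Genes of the spindle checkpoint and of the anaphase-promoting complex, the ubiquitin ligase that the checkpoint restrains, gave a median log2 change of 0.12. Bub1b, which encodes the checkpoint protein BubR1, read -0.70 and -0.25 in RFF11 cells and -0.93 and -0.65 in RFF cells, a log2 change of 0.32 (limma SE 0.19, adjusted p = 0.387). Cdca3, which takes part in entry into mitosis, read 1.56 and 2.06 in RFF11 cells and 1.82 and 1.73 in RFF cells, a log2 change of 0.03 (limma SE 0.19, adjusted p = 0.930). The arrays overlapped for both, with RFF11 replicate 2 the highest. The checkpoint kinase Bub1 stood at 0.19, the activator Cdc20 at 0.12 and the conjugating enzyme Ube2c at 0.09.

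Of the 22 tested G2/M genes, 2 had both RFF11 arrays above both RFF arrays, Kif23 and Cenpe, where 26.8% of all genes tested did. Kif23, a kinesin of the central spindle needed for cytokinesis, read -0.50 and -0.09 in RFF11 cells and -0.96 and -0.72 in RFF cells. Its log2 change of 0.55 (limma SE 0.17, 95% interval 0.07 to 1.03, adjusted p = 0.175) fell short of the threshold, and it was 0.34 without RFF11 replicate 2 and 0.75 without RFF11 replicate 1. Cenpe, the kinesin that moves chromosomes to the spindle equator, read 1.63 and 1.96 in RFF11 cells and 1.604 and 1.603 in RFF cells, a log2 change of 0.19 (limma SE 0.13, adjusted p = 0.426). Here RFF11 replicate 1 exceeded the higher RFF array by 0.02.

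Prc1, which bundles the microtubules of the central spindle, read 1.88 and 2.21 in RFF11 cells and 1.96 and 1.92 in RFF cells, a log2 change of 0.10 (limma SE 0.13, adjusted p = 0.653). The other spindle genes were the kinesins Kif11 (0.16) and Kif20a (0.11) and the microtubule-associated Tpx2 (0.18) and Nusap1 (0.17). Of the chromosome passenger complex, which corrects faulty attachments, Cdca8 read 2.56 and 2.92 in RFF11 cells and 2.72 and 2.71 in RFF cells, a log2 change of 0.03 (limma SE 0.14, adjusted p = 0.919). Its partner Birc5, also known as survivin, stood at 0.08. RFF11 replicate 2 was above both RFF arrays for each of these genes, and replicate 1 for none of them.

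**Figure D2:**
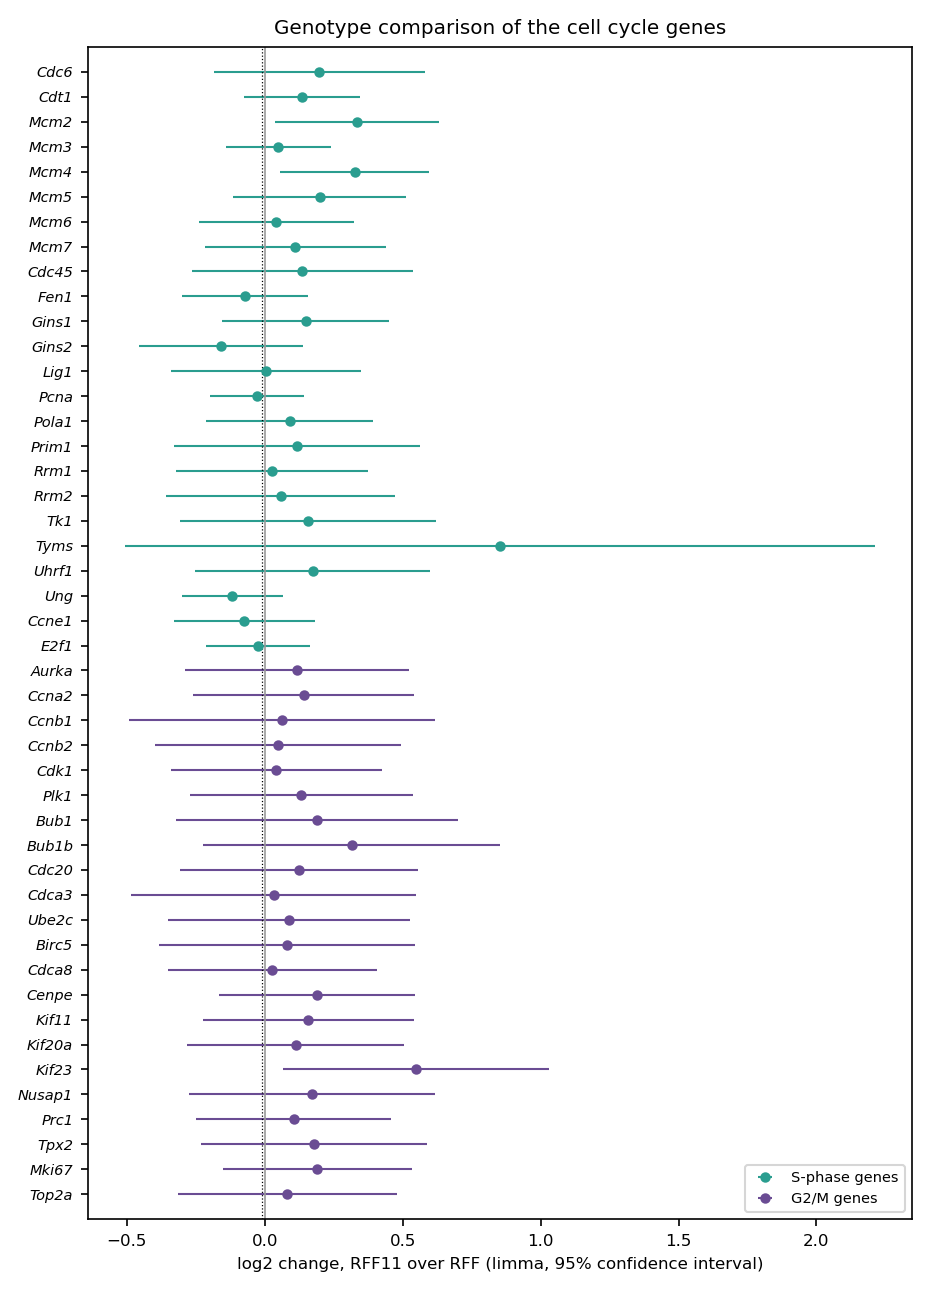
Log2 change, RFF11 minus RFF (horizontal axis), as points with unadjusted 95% intervals from limma as bars, for the 46 tested genes (vertical axis), S-phase genes above G2/M genes; the dotted line is the median of all genes tested, -0.01. The intervals of Mcm2, Mcm4 and Kif23 lie above 0, those of the other 43 genes include 0, and that of Tyms is the widest.

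The G2/M genes moved as a tight block between the RFF11 arrays. RFF11 replicate 2 exceeded replicate 1 in 22 of 22, from 0.28 for Mki67 to 0.54 for Ccnb1, with a median of 0.39 and an SD over genes of 0.06. Ccnb1 read 0.74 and 1.28 in RFF11 cells, against 0.88 and 1.004 in RFF cells. The S-phase genes had a median of 0.27, with 22 of 24 above 0 and 14 above 0.25. Apart from Tyms and Ung they ran from 0.09 for Pcna to 0.44 for Tk1, the lowest being Pcna, E2f1, Mcm3 and Cdt1. Of 12 further probes for members with several probes, 11 were also higher on RFF11 replicate 2, and the median difference of the 12 was 0.43. The exception was the dimmer Cdk1 probe, at -0.11.

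**Figure D3:**
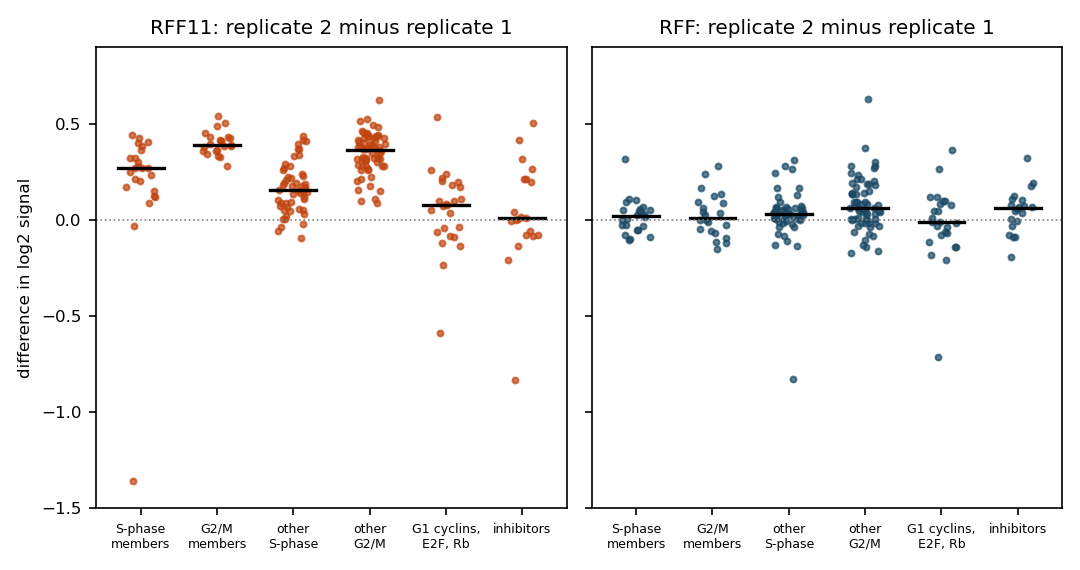
Difference between the arrays of a genotype, replicate 2 minus replicate 1 (log2), with RFF11 in the left panel and RFF in the right, for each tested S-phase and G2/M member and for 4 further lists described below; points are genes, horizontal bars medians, and the dotted line the median of all genes tested. For the members, the RFF11 differences have medians of 0.27 for S-phase and 0.39 for G2/M genes, and the RFF differences have medians of 0.02 and 0.01.

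Whether the S-phase and G2/M genes differed in their response depended on the array. In the fit, the median log2 change was 0.10 for S-phase and 0.12 for G2/M genes, a difference of -0.02. RFF11 replicate 1 set against the RFF mean gave medians of -0.06 for S-phase and -0.07 for G2/M genes, and RFF11 replicate 2 gave 0.22 and 0.33. In single pairs of arrays, the S-phase median minus the G2/M median was 0.01 and 0.00 for RFF11 replicate 1 against RFF replicates 1 and 2, and -0.10 and -0.09 for RFF11 replicate 2. Among the members, a gap between the S-phase and G2/M genes therefore appeared in the pairs that held RFF11 replicate 2 and not in those that held replicate 1. It was not tested, since the genes were chosen with results of these data known.

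**Figure D4:**
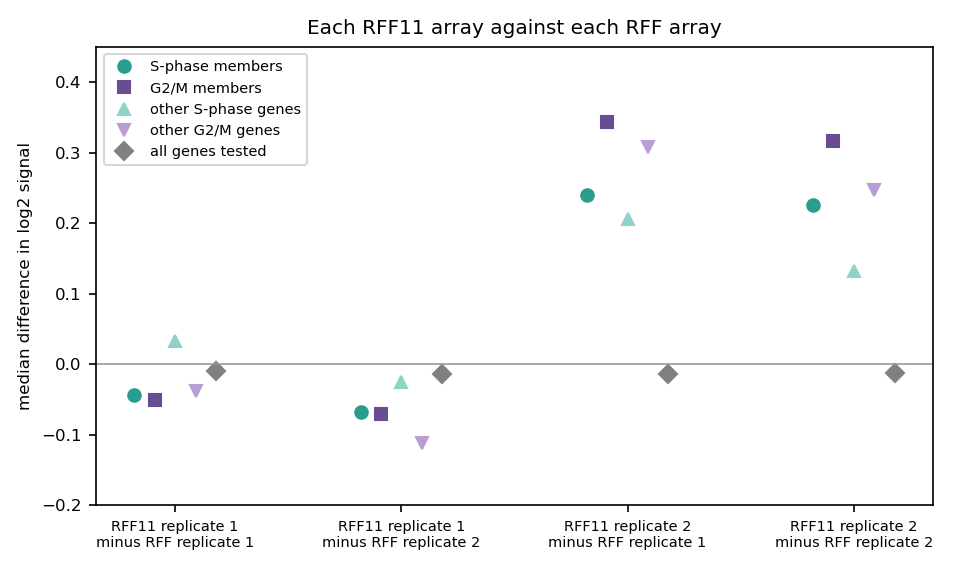
Median log2 difference (vertical axis) of the S-phase and G2/M members, of further S-phase and G2/M genes and of all genes tested, in each of the 4 pairs of an RFF11 with an RFF array (horizontal axis). For the members, pairs with RFF11 replicate 1 lie between -0.07 and -0.04, and pairs with RFF11 replicate 2 lie between 0.23 and 0.34 with the G2/M median on top.

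Promoter sequences are shown for 6 members to let the S-phase and G2/M genes be compared in the elements through which they are known to be switched on. Windows of 300 bases, from 250 before to 50 after the RefSeq start in GRCm38.p6, were searched on both strands for the E2F motif (TTCCCGC or TTCGCGC or TTGCCGC or TTGGCGC), for the CHR (TTTGAA or TTCGAA) and for the CCAAT box, which the factor NF-Y binds. The last E2F word can overlap a reversed CCAAT box. A window was found for 21 of 25 S-phase and 20 of 24 G2/M genes. The 3 S-phase genes are Mcm2 (chr6:88898731-88899030, minus strand), the licensing gene with the largest change, Mcm5 (chr8:75109259-75109558, plus strand) with 3 E2F matches, and Rrm2 (chr12:24708004-24708303, plus strand). The last E2F match of Mcm5 overlaps the one before it, on the other strand, so they share a marked stretch. The 3 G2/M genes are Kif23 (chr9:61946750-61947049, minus strand), with the largest G2/M change, and Ccnb1 (chr13:100786437-100786736, minus strand) and Ccnb2 (chr9:70421505-70421804, minus strand), the B cyclins. Each is printed along the gene's own strand, and capitals mark the motif matches on either strand.
Mcm2: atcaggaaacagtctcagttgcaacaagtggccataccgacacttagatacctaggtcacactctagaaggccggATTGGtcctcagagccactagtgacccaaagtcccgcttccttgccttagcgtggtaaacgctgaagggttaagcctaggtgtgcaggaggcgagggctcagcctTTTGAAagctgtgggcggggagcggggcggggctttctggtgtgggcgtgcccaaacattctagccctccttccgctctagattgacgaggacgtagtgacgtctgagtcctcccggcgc
Mcm5: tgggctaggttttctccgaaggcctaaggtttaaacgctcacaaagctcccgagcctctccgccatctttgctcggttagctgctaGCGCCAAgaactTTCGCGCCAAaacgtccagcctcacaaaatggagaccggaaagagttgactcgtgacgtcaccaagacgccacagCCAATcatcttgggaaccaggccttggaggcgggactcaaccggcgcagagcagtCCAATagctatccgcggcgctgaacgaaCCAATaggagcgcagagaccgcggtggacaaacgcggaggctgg
Rrm2: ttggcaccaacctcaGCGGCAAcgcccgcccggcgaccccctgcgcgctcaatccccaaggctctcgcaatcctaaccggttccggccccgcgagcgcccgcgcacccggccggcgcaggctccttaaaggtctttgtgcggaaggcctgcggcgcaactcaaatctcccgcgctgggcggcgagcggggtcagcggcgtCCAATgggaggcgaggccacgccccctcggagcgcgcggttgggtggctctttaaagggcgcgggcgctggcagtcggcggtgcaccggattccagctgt
Kif23: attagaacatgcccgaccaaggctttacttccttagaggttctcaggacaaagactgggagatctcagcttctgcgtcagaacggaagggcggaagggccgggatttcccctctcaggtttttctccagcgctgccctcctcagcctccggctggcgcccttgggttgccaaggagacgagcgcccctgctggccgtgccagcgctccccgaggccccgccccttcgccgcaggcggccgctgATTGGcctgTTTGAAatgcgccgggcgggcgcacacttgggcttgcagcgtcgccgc
Ccnb1: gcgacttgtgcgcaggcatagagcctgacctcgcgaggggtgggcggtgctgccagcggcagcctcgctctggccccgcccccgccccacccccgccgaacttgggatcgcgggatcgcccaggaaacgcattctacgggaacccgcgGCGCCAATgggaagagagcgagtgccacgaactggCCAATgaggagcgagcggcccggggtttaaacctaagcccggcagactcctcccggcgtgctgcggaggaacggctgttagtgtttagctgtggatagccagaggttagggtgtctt
Ccnb2: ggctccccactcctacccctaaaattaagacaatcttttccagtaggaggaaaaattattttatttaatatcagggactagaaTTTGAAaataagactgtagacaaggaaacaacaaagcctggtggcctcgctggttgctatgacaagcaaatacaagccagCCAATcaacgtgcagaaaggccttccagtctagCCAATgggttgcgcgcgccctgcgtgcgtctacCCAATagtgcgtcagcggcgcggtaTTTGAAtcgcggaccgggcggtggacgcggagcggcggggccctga

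The E2F motif was present in 16 of 26 S-phase windows (61.5%) and 3 of 21 G2/M windows (14.3%), against 9.57% of all 32851 RefSeq windows. The CHR showed the reverse, with 4 of 26 S-phase windows (15.4%) and 17 of 21 G2/M windows (81.0%), against 19.2% of all windows. CCAAT boxes were present in 14 of 26 S-phase (53.8%) and 19 of 21 G2/M windows (90.5%), against 37.4% of all. Leaving out windows whose E2F matches all overlapped a CCAAT box, 57.7% of S-phase, 9.52% of G2/M and 9.21% of all windows kept one. Of the sequences shown, Mcm5 and Rrm2 hold E2F matches and no CHR, Kif23 and Ccnb2 hold CHR and no E2F match, Mcm2 holds a CHR and no E2F match, and the single E2F match of Ccnb1 overlaps its CCAAT box.

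Within a phase, the array difference was set beside the motifs as a description. S-phase genes tested without an E2F match were Ccne1, Cdc45, E2f1, Mcm2, Pcna, Tk1 and the members not higher on RFF11 replicate 2, Tyms and Ung. These 8 had a median RFF11 replicate 2 minus replicate 1 difference of 0.16, and the 13 with a match had 0.30. For G2/M genes the order was the other way, with 0.35 for the 3 with an E2F match, Ccnb1, Cdk1 and Mki67, and 0.41 for the 16 without. For the CHR in G2/M genes the medians were 0.39 for the 15 with a CHR and 0.43 for the 4 without, which were Birc5, Ccnb1, Cenpe and Nusap1. A match is no evidence that a factor binds there, and its absence covers only these windows and letters.

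Other genes of the same pathways, from lists drawn up with earlier results of these data known, also lay mostly higher on RFF11 replicate 2. Of 51 tested genes from a further S-phase list none passed, 43 lay above 0 (median 0.09), and the RFF11 replicate 2 minus replicate 1 median was 0.16 with 47 above 0 and 12 above 0.25. RFF11 replicate 1 alone against the RFF mean put 26 of the 51 above 0 (median 0.02), and RFF11 replicate 2 alone put 44 there (median 0.17). Of 63 tested genes from a further G2/M list none passed and 52 lay above 0 (median 0.11), with 13 above 0 for RFF11 replicate 1 alone (median -0.06) and 61 for RFF11 replicate 2 alone (median 0.28). All 63 were higher on RFF11 replicate 2 than on replicate 1, by a median of 0.36 and from 0.09 for Arhgap11a to 0.62 for Plk4. Unlike the members, the further lists also differed in the pairs with RFF11 replicate 1, where the S-phase medians were higher. These were 0.03 and -0.02 against RFF replicates 1 and 2, with -0.04 and -0.11 for G2/M genes. In the pairs with RFF11 replicate 2 they were lower, at 0.21 and 0.13, with 0.31 and 0.25 for G2/M genes. RFF replicate 2 was above RFF replicate 1 for 39 of 51 and 48 of 63 genes of these lists, with medians of 0.03 and 0.06, against 25 of 46 members. The gene farthest from 0 in the first list was Cdca7, a chromatin-associated protein gene, at 0.43 (limma SE 0.09, adjusted p = 0.103). In the second it was Bora, an activator of Aurora A, at 0.55 (limma SE 0.12, adjusted p = 0.107).

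Regulators upstream of S phase differed less between the RFF11 arrays in their medians. The 25 tested G1 cyclins, kinases and E2F and Rb family genes had a median of 0.08 between the RFF11 arrays and a median log2 change of 0.07, and none passed. Cyclin D1, Ccnd1, which couples growth signals to G1 progression, read 4.15 and 4.22 on the RFF11 arrays and 3.88 and 3.67 on the RFF arrays. Its log2 change was 0.41 (limma SE 0.09, adjusted p = 0.111), with no overlap and little difference between the RFF11 arrays. Of 20 cell cycle inhibitors none passed and 6 lay above 0, with a median log2 change of -0.14 and a median of 0.01 between the RFF11 arrays. Cdkn2b, an inhibitor of the cyclin D kinases, read -2.38 and -2.46 in RFF11 cells and -2.01 and -1.97 in RFF cells, a log2 change of -0.43 (limma SE 0.06, adjusted p = 0.0627). In both genes each RFF11 array lay outside the range of the RFF arrays.

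Summed over markers, the signal of stem and progenitor cell genes was 5.47 and 7.32 on the RFF11 arrays and 4.77 and 4.48 on the RFF arrays. That of erythroid and megakaryocyte genes was 12.5 and 16.5 in RFF11 and 10.6 and 10.6 in RFF. Both sums were highest on RFF11 replicate 2, but a sum is weighted to its brightest genes. The median level of the stem and progenitor genes was -1.69 and -1.61 in RFF11 and -1.64 and -1.57 in RFF. For the erythroid and megakaryocyte genes it was -4.20 and -3.78 in RFF11 and -4.58 and -4.59 in RFF. Ly6a, the Sca-1 antigen of progenitors and activated cells, read 0.61 and 1.47 in RFF11 cells and -0.43 and -0.69 in RFF cells (log2 change 1.604, limma SE 0.32, adjusted p = 0.0909). Of the 8 stem and progenitor genes tested, 4 lay above 0 with a median log2 change of 0.02. Ly6a was the one with both RFF11 arrays above both RFF arrays, and 3 had both below. Over all genes tested, 26.8% had both above and 32.3% both below. Of 7 erythroid and megakaryocyte genes 5 lay above 0 (median 0.18) and 7 were higher on RFF11 replicate 2 than on replicate 1. Itga2b stood at 0.82 (limma adjusted p = 0.0909). Neutrophil and granulocyte precursor genes summed to 55.80 and 49.02 in RFF11 and 33.5 and 38.6 in RFF, with 10 of 13 genes above 0 (median 0.61). Their sum was lower on RFF11 replicate 2 than on replicate 1, although 8 of the 13 genes were higher there, by a median of 0.04 over the list. Of these, Mpo rose by 0.74 (limma adjusted p = 0.0378) and Ngp by 0.54 (limma adjusted p = 0.0445). The part of these cells in the cell cycle values was not tested.

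Dendritic cell markers summed to 1150 and 1069 in RFF11 and 1183 and 1156 in RFF over 13 measured genes, of which 4 lay above 0 (median -0.07), with Ccr7 at -0.48 (limma adjusted p = 0.0931). Monocyte and macrophage markers summed to 271 and 273 in RFF11 and 290 and 302 in RFF, with 4 of 12 genes above 0 (median -0.15), where Fcgr1 (-0.61, limma adjusted p = 0.0424) fell. T, B and natural killer cell markers summed to 3.38 and 3.84 in RFF11 and 4.02 and 3.97 in RFF, with 3 of 5 tested genes above 0 (median 0.63), Klrb1c risen by 1.14 (limma adjusted p = 0.0379) and Ms4a1, Pax5, Cd8a and Ncr1 on 0 arrays above background. Mast cell, basophil and eosinophil markers summed to 3.34 and 3.37 in RFF11 and 4.21 and 4.12 in RFF, with Siglecf, which fell, at -0.63 (limma adjusted p = 0.0379). Of the 6 genes of that list tested, 4 had both RFF11 arrays above both RFF arrays, against 26.8% of all genes tested. None of the 4 passed, and the median log2 change of the 6 was 0.60. Stromal and endothelial markers summed to 4.43 and 4.37 in RFF11 and 4.99 and 4.70 in RFF, with 1 of 4 genes above 0 (median -0.33) and Sparc at -0.60 (limma adjusted p = 0.622).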

How the data were processed

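Total RNA (150 ng, labelled with Cy3) was hybridised to one-colour Agilent mouse arrays. Spot intensity was read by Agilent Feature Extraction 10.7.1.1, per the file headers, and the processed signal is background-subtracted and not scaled between arrays. The deposited table holds the authors' log2 values, scaled per array and centred per probe by steps that the sources used here do not give; it followed the scanner signal over 39426 probes and served as an alternative. Its column medians were -0.0340 and 0.0201 (RFF11) and 0.0531 and -0.0305 (RFF).

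Outlier spots were left out (132 and 127 on the RFF11 arrays, 176 and 138 on the RFF arrays), and 0 were saturated. Each array's log2 processed signal was reduced by its 75th percentile, spots of a probe were averaged, and a probe was kept if both arrays of 1 or both genotypes had it well above background. Genotypes were compared with limma 3.58.1 in R 4.3.3 (lmFit, eBayes) over 17974 genes with Benjamini-Hochberg adjustment and a threshold of 0.05. SE values are moderated, and precision is limited by the 4 arrays. The normexp alternative used the median and background median signals, with an offset of 50, since the files hold no mean signal. The fit was also run on simulated arrays with errors drawn independently for each gene. Those arrays hold no shift shared by many genes, so they do not cover the pattern of RFF11 replicate 2. Names and promoters came from RefSeq GRCm38.p6. The array headers give mm9, so no array coordinates were used. Of 39429 probes 26055 received 1 symbol and 13374 none, where any accession matching several symbols was given none. Columns of other samples numbered 0.

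Array values are given for Rbpj and for the genes with the highest and lowest log2 change in each role group, and of each other list for up to 3 genes past the threshold in each direction, or else the gene farthest from 0. Ccnb1, Mcm4 and Itgax lie outside this rule and were picked with their values in view. Some results that the rule covers are left out of the text. The members, lists and rule were chosen with earlier results of these data known.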

Additional observations from a re-analysis of the deposited data

How the results depend on the processing

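The count of members past the threshold was 0 in either direction under all 13 alternatives. Over all genes, 338 passed in the fit, 886 with normexp background correction, 1547 with a variance prior that followed signal and was robust, 0 of 32496 without a filter on dim probes (3655 at an unadjusted p under 0.05), 0 with the replicate block (3677), 0 without either RFF11 array and 1 without either RFF array. The deviations of same-numbered arrays correlated at -0.05 over genes. With 2 arrays per genotype, this value cannot decide whether the numbers pair the samples. Rbpj kept its direction but missed the threshold without the filter (-1.25, limma adjusted p = 0.260), with the replicate block (-1.25, limma adjusted p = 0.101) and without any 1 array (-1.29 to -1.21). Leaving out 1 array, where a lone array takes its spread from the other genotype, gave G2/M medians of -0.069 to 0.33, S-phase medians of -0.06 to 0.22 and S-phase minus G2/M differences of -0.11 to 0.0088. It also took across 0 the log2 changes of Ccna2 (-0.051 to 0.33), Ccne1 (-0.17 to 0.027), Cdca3 (-0.22 to 0.28), Cdca8 (-0.15 to 0.21), Cdk1 (-0.13 to 0.21), E2f1 (-0.085 to 0.035), Mcm6 (-0.074 to 0.16), Prc1 (-0.059 to 0.27), Rrm1 (-0.13 to 0.19), Top2a (-0.10 to 0.26) and Uhrf1 (-0.030 to 0.38). Across scalings and backgrounds 37 to 42 of the 46 members lay above 0. Signs also turned for Rrm1 with normexp (-0.023) and median scaling (-0.0044), E2f1 with quantile normalization (0.0022) and Cdca8 with median scaling (-0.0032). The cause was not tested. Over 5 alternatives added after seeing the data, the difference between the RFF11 arrays kept medians of 0.21 to 0.27 for S-phase genes and 0.34 to 0.40 for G2/M genes. Ccne2, Cenpf and Aurkb were too dim to measure here.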
